A study of Homo sapiens with 8 samples.

Results

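Small nucleolar RNA (snoRNA) host genes are long non-coding genes whose introns carry snoRNAs. The 10 genes described here, GAS5, SNHG1, SNHG5, SNHG6, SNHG7, SNHG8, SNHG12, SNHG15, SNHG16 and ZFAS1, were chosen by name as rows of a table of 38148 genes, and all 10 were found and passed the filter on low values that left 14219 genes for testing. The samples were 8 mRNA-seq libraries of HT29, an established colorectal cancer cell line. Cells were left untreated or given 1 μM selumetinib, an inhibitor of the kinase MEK, for 24 h, then fixed with glyoxal, stained for cyclin B1 (CCNB1), a protein that accumulates in the G2 phase of the cell cycle, and flow cytometry divided them into a fraction without and a fraction with CCNB1 staining. Each of the 4 combinations of treatment and fraction had 2 libraries, and every group came from this single cell line, fixed and stained in the same way.

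In the biology of the ribosome, snoRNAs guide the chemical modification of ribosomal RNA. Box C/D snoRNAs (named SNORD) direct ribose methylation and box H/ACA snoRNAs (named SNORA) direct pseudouridylation, each in a particle with a fixed set of core proteins. After splicing, the introns of a host gene are trimmed to the snoRNA, while the joined exons leave the nucleus, engage ribosomes and are degraded by nonsense-mediated decay, so that the spliced level reflects both synthesis and translation. Many host genes begin with a terminal oligopyrimidine tract, a C followed by a run of C and T, as ribosomal protein genes do, and GAS5 takes its name from its accumulation in growth-arrested cells. The table holds gene-level values of polyadenylated RNA and 0 rows of the snoRNA type, so what follows concerns polyadenylated RNA of the host genes and not the snoRNAs. Whether reads in introns were counted is not given in the sources used here.

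The start of 8 of the 10 genes was available from RefSeq on GRCh38.p14, and these windows are shown because a pyrimidine tract at the start is the feature that host genes and ribosomal protein genes are known to share. Each window runs 5′ to 3′ over 50 bases, with 20 bases before the annotated start, and capitals mark the unbroken run of C and T that covers the start base. SNHG6 and SNHG15 are named only.
SNHG12: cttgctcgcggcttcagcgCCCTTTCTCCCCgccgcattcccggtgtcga
ZFAS1: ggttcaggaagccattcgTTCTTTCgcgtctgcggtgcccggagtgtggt
SNHG5: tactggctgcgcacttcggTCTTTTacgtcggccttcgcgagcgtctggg
SNHG7: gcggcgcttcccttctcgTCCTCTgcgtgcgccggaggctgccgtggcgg
SNHG1: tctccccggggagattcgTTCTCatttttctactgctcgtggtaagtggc
SNHG8: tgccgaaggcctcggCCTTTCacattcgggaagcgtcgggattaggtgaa
GAS5: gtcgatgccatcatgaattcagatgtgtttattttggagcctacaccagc
SNHG16: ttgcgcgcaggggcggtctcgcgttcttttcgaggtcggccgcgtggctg
The windows lie at chr1:28581844-28581893 on the minus strand for SNHG12, chr20:49278622-49278671 on the plus strand for ZFAS1, chr6:85678704-85678753 (minus) for SNHG5, chr9:136728155-136728204 (minus) for SNHG7, chr11:62855856-62855905 (minus) for SNHG1, chr4:118278742-118278791 (plus) for SNHG8, chr1:173869016-173869065 (minus) for GAS5 and chr17:76557744-76557793 (plus) for SNHG16.

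Of these 8 starts, 6 (75%) had a C at the start base, against 14.7% of the 35116 promoters in the same RefSeq table. The share was 28.6% of 21 promoters of further non-coding snoRNA host genes and 66.7% of 78 cytosolic ribosomal protein genes. A C with at least 5 pyrimidines in a row from the start base was found at SNHG5, SNHG12 and ZFAS1, that is 3 of 8 (37.5%). This compared with 4.07% of all promoters, 19% of the 21 for further host genes and 60.3% of the 78 ribosomal protein genes. The run was longest at SNHG12, with 11 pyrimidines from the start base. The annotated starts were single positions, and only those of SNHG7 and SNHG16 matched the start of the deposited gene. The start used for GAS5 lay 163 bases upstream of it, and those of SNHG12, ZFAS1, SNHG5, SNHG1 and SNHG8 lay 1259, 464, 199, 68 and 53 bases inside it. The letters CACGTG (the E-box), searched over 300 bases around the start where both strands read the same, occurred once among the 8, in SNHG7, against 7.26% of all promoters. The letters CCGGAAGT (an ETS site), searched on both strands, occurred at 0 of 8 against 4.14%. These are descriptions of letters in a window and not of bound sites.

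The libraries held 12696860 to 23916160 reads on genes. Every member was well covered in every library, the lowest being 299 reads of SNHG15 in selumetinib-treated CCNB1-negative replicate 2. Replicates were separate samples in the labels, but nothing says that they came from separate cultures, so p-values measure only the spread between these samples, which may be technical. The titles of all 8 libraries gave the opposite treatment and fraction to their short descriptions. Conditions here follow the descriptions, which also name the columns of the table. If the titles were right, the response given for CCNB1-negative cells would belong to CCNB1-positive cells with the opposite sign, and the reverse. CCNB1 stood at log2 11.66 and 12.01 in untreated CCNB1-negative, 13.79 and 14.05 in untreated CCNB1-positive, 7.92 and 7.22 in treated CCNB1-negative and 12.76 and 12.53 in treated CCNB1-positive libraries. DUSP6, a phosphatase gene switched on by the pathway below MEK, was 11.38, 11.33, 10.66 and 10.56 in the libraries described as untreated, in that order, and 9.46, 9.73, 9.21 and 9.89 in those described as treated. Together with ETV4, ETV5 and SPRY4, targets of the same pathway, all 5 label-check genes fell in both fractions. Under the titles all 5 would instead rise with selumetinib, and CCNB1 would be lower in the CCNB1-positive fraction of each treatment. The 9 colon epithelial markers, EPCAM, KRT8 and KRT18 among them, were all above the filter, and 2 rose and 3 fell in CCNB1-negative cells, from EPCAM (-1.34) to CDX2 (1.06), while 3 rose and 1 fell in CCNB1-positive cells. Of 8 markers of other cell types, 7, including PTPRC and CD3E, did not reach the filter. The remaining one, COL1A1, rose by 1.81 and 2.19, and the summed level of the 8 was 1.62 to 2.47 RPM (reads scaled to a common total of reads on genes) in untreated and 3.86 to 8.21 RPM in treated libraries. Its part in the results was not tested.

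Relative to the total reads of a library, most of the host genes were lower after selumetinib in both fractions, a direction that turned for GAS5, SNHG5 and SNHG7 in both fractions, SNHG8 in the CCNB1-negative and SNHG6 in the CCNB1-positive fraction when values were centred on ribosomal protein genes. In CCNB1-negative cells 8 of 10 fell (limma, adjusted p under 0.05), where 35.8% of all 14219 genes fell, 38.2% rose and 74.1% changed in either direction. Among CCNB1-positive cells 8 of 10 fell, against 27.3% of all genes that fell, 38% that rose and 65.3% that changed. The median log2 fold change of the 10 was -0.96 in the CCNB1-negative and -0.60 in the CCNB1-positive fraction, beside 0.05 and 0.17 for all genes tested. Of the 10119 genes with at least 10 RPM, a level all members exceed, 44.4% and 35.5% fell in the respective fractions. Their medians were -0.21 and -0.09. The same 7 genes, GAS5, SNHG1, SNHG6, SNHG8, SNHG12, SNHG15 and SNHG16, fell in both fractions, SNHG5 fell in the CCNB1-negative and SNHG7 in the CCNB1-positive fraction, and ZFAS1 did not pass the test in either. For 9 of the 10, each of the 4 treated libraries lay below each of the 4 untreated ones, which held for 31.4% of all genes tested. In bulk RNA, fewer cells that express a gene and less RNA per cell cannot be told apart.

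**Figure D1:**
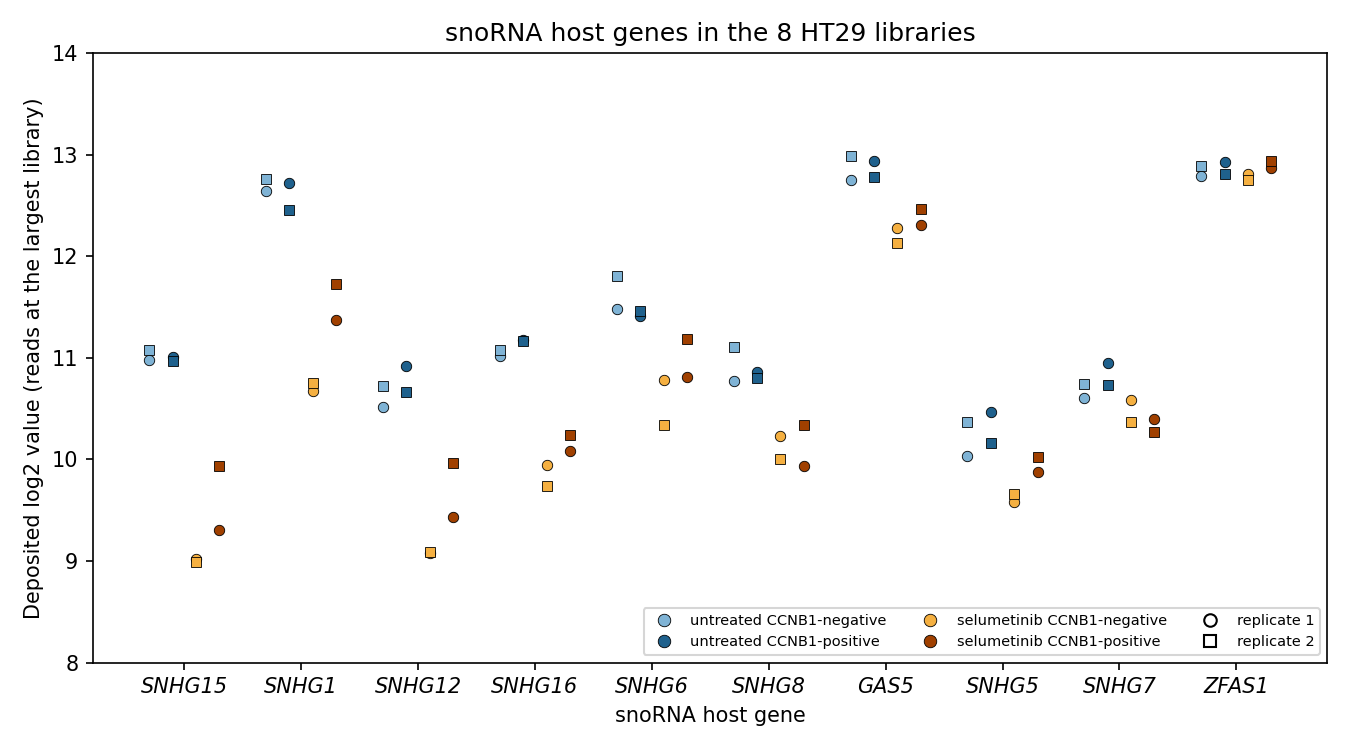
Deposited log2 value (y axis, reads at the depth of the largest library) of each snoRNA host gene (x axis) in the 8 libraries; colours give the group, circles replicate 1 and squares replicate 2. On this scale of total reads, treated libraries lie below all untreated ones for 9 genes, from the wide gap of SNHG15 to the narrow one of SNHG5 and SNHG7, and overlap them for ZFAS1.

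SNHG1 (ENSG00000255717, chr11:62851984-62855953, minus strand, 11 exons in the canonical transcript) carries SNORD22, SNORD25, SNORD26, SNORD27, SNORD28 and SNORD30 in the annotation. Its log2 value was 12.64 and 12.76 in untreated CCNB1-negative libraries, 12.72 and 12.46 in untreated CCNB1-positive, 10.68 and 10.75 in treated CCNB1-negative and 11.37 and 11.72 in treated CCNB1-positive libraries. The 4 groups fell into 3 levels, since the untreated fractions overlapped while the treated CCNB1-positive libraries lay between them and the treated CCNB1-negative ones. SNHG1 fell by 1.99 on the log2 scale in CCNB1-negative cells (SE 0.160, 3.96-fold lower, adjusted p = 1.2e-07) and by 1.04 in CCNB1-positive cells (SE 0.160, 2.06-fold lower, adjusted p = 7.8e-05).

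SNHG16 (ENSG00000163597, chr17:76557764-76565348, plus strand), the host of SNORD1A, SNORD1B and SNORD1C, was at log2 11.02 and 11.08 in untreated CCNB1-negative, 11.18 and 11.17 in untreated CCNB1-positive, 9.94 and 9.74 in treated CCNB1-negative and 10.08 and 10.24 in treated CCNB1-positive libraries. Treated and untreated values stood apart in both fractions, by more than the spread within any group. The fall was 1.21 on the log2 scale in CCNB1-negative cells, that is a change of -1.21 (SE 0.143, adjusted p = 3.9e-06), and -1.01 in CCNB1-positive cells (SE 0.143, adjusted p = 3.8e-05).

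SNHG6 (ENSG00000245910, chr8:66921684-66926398, minus strand), the host of SNORD87, had log2 values of 11.48 and 11.81, 11.41 and 11.46, 10.78 and 10.34, and 10.81 and 11.18 in the same order of groups. Its replicates were farther apart than those of SNHG16, most of all among treated libraries. The log2 fold change was -1.09 in CCNB1-negative cells (SE 0.183, adjusted p = 0.0001) and -0.44 in CCNB1-positive cells (SE 0.183, adjusted p = 0.048), the latter just inside the threshold and lost on leaving out untreated CCNB1-positive replicate 1 or 2 or treated CCNB1-positive replicate 1.

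GAS5 (ENSG00000234741, chr1:173858559-173868882, minus strand, 12 exons) is a host of box C/D snoRNAs and the most abundant member per length. Its log2 values were 12.75 and 12.99 in untreated CCNB1-negative, 12.94 and 12.78 in untreated CCNB1-positive, 12.27 and 12.13 in treated CCNB1-negative and 12.30 and 12.46 in treated CCNB1-positive libraries. It was lower in all 4 treated libraries, with log2 fold changes of -0.67 (SE 0.156, adjusted p = 0.0015) in CCNB1-negative and -0.47 (SE 0.156, adjusted p = 0.016) in CCNB1-positive cells. The call in CCNB1-positive cells was lost without untreated CCNB1-positive replicate 1 and without treated CCNB1-positive replicate 1.

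SNHG5 (ENSG00000203875, chr6:85650491-85678932, minus strand), is the host of SNORD50B in the annotation. Its log2 values were 10.04 and 10.37, 10.47 and 10.16, 9.58 and 9.66, and 9.87 and 10.02 in the same order. The treated CCNB1-positive replicate 2 came within the replicate spread of the untreated CCNB1-negative replicate 1. In CCNB1-negative cells the log2 fold change of -0.59 passed the test (SE 0.165, adjusted p = 0.0055), but not without untreated CCNB1-negative replicate 2. In CCNB1-positive cells the change was -0.36 (95% confidence interval -0.72 to -0.01, adjusted p = 0.067).

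ZFAS1 (ENSG00000177410, chr20:49278178-49299600, plus strand), which carries SNORD12, SNORD12B and SNORD12C and starts beside ZNFX1 on the other strand, was the exception. Its log2 values spanned only 12.75 to 12.94 over all 8 libraries: 12.79 and 12.88, 12.93 and 12.81, 12.81 and 12.75, and 12.87 and 12.94 in the same order. Treated and untreated libraries overlapped in both fractions. The log2 fold change was -0.05 (95% confidence interval -0.37 to 0.26, adjusted p = 0.75) in CCNB1-negative and 0.04 (-0.28 to 0.35, adjusted p = 0.84) in CCNB1-positive cells. The deposited spans of ZFAS1 and ZNFX1 overlap by 249 bases, ZNFX1 itself rose by 0.97 and 0.67 on the log2 scale in the respective fractions, and the strand handling of the table is not given in the sources used here, so the part of reads from ZNFX1 in the ZFAS1 value was not tested.

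SNHG12 (ENSG00000197989, chr1:28578538-28583132, minus strand) is the one member with both classes, SNORD99 of box C/D and SNORA16A, SNORA44 and SNORA61 of box H/ACA. It read log2 10.52 and 10.72 in untreated CCNB1-negative, 10.92 and 10.66 in untreated CCNB1-positive, 9.08 and 9.08 in treated CCNB1-negative and 9.43 and 9.97 in treated CCNB1-positive libraries. The treated CCNB1-positive replicates stood well apart, while the treated CCNB1-negative ones were almost equal. SNHG12 fell by 1.54 on the log2 scale in CCNB1-negative cells (SE 0.181, adjusted p = 3.8e-06) and by 1.09 in CCNB1-positive cells (SE 0.181, adjusted p = 0.00015).

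The hosts of box H/ACA snoRNAs held both a strong and a weak responder. SNHG15 (ENSG00000232956, chr7:44983023-44986961, minus strand), the host of SNORA9, had log2 values of 10.98 and 11.08 in untreated CCNB1-negative, 11.01 and 10.97 in untreated CCNB1-positive, 9.02 and 8.99 in treated CCNB1-negative and 9.31 and 9.94 in treated CCNB1-positive libraries. The untreated libraries agreed closely in both fractions, and the treated CCNB1-positive replicate 2 was the highest of the treated ones. SNHG15 fell by 2.03 on the log2 scale in CCNB1-negative cells (SE 0.183, 4.08-fold lower, adjusted p = 3.1e-07) and by 1.37 in CCNB1-positive cells (SE 0.183, 2.58-fold lower, adjusted p = 2.4e-05).

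SNHG8 (ENSG00000269893, chr4:118278709-118285316, plus strand), the host of SNORA24, read log2 10.77 and 11.11, 10.86 and 10.80, 10.23 and 10.005, and 9.93 and 10.34 in the same order of groups. Its 2 treated fractions overlapped. The log2 fold change was -0.82 (SE 0.173, adjusted p = 0.00064) in CCNB1-negative and -0.69 (SE 0.173, adjusted p = 0.003) in CCNB1-positive cells, and the latter was lost without treated CCNB1-positive replicate 1.

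SNHG7 (ENSG00000233016, chr9:136721366-136728184, minus strand), the host of SNORA17A and SNORA17B, had log2 values of 10.60 and 10.75, 10.94 and 10.73, 10.59 and 10.37, and 10.40 and 10.27. The higher treated CCNB1-negative library was only just below the lower untreated one. In CCNB1-negative cells its change of -0.19 did not pass the test (95% confidence interval -0.52 to 0.13, adjusted p = 0.25). In CCNB1-positive cells SNHG7 fell by 0.51 on the log2 scale (SE 0.150, adjusted p = 0.0091), a call that was lost without untreated CCNB1-positive replicate 1 or treated CCNB1-positive replicate 2.

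Reads of overlapping genes could enter other members too. On the opposite strand the annotation places, among others, parts of ZBTB37 and GAS5-AS1 over GAS5, MCMDC2 over SNHG6, DIPK1B over SNHG7, PRSS12 over SNHG8, TRNAU1AP over SNHG12, AC015802.6 over SNHG16 and ZNFX1 over ZFAS1. Of these named genes, ZNFX1 and TRNAU1AP aside, the highest was ZBTB37 with a log2 value of at most 8.08, below every value of the members, the lowest of which was 8.99. SNHG1, SNHG5 and SNHG15 had no such overlap, and the split of shared reads remains uncertain for the other members.

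**Figure D2:**
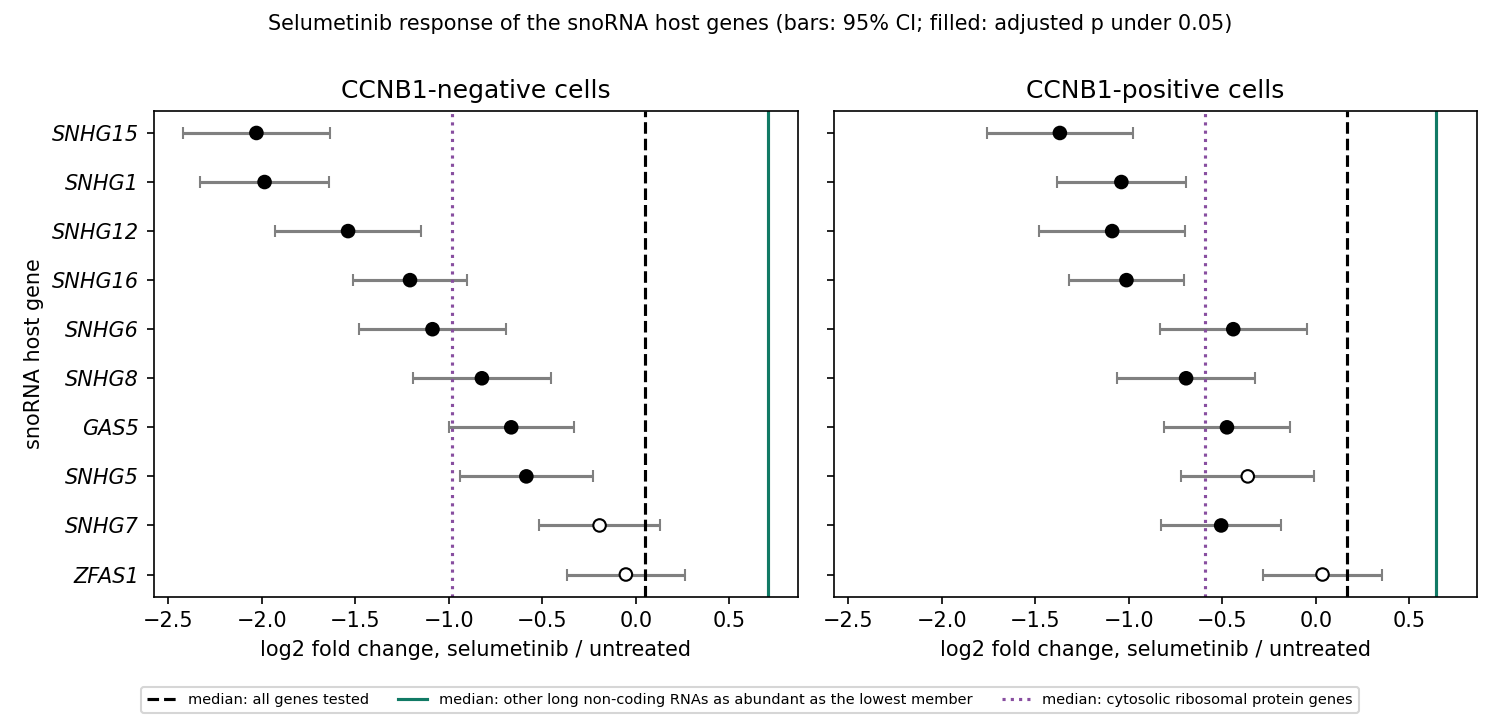
Log2 fold change of selumetinib against untreated (x axis) for each snoRNA host gene (y axis) in CCNB1-negative (left) and CCNB1-positive cells (right); points are limma estimates from 2 libraries a group, bars their 95% confidence intervals, and filled points passed the adjusted test. Lines give the median of all genes tested (0.05 and 0.17), of the 103 other long non-coding RNAs at least as abundant as the lowest member (0.71 and 0.65) and of cytosolic ribosomal protein genes (-0.98 and -0.59).

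The fall of the host genes ran against the general direction of long non-coding RNAs. Outside snoRNA host genes, 1835 long non-coding RNAs were tested: 1013 rose and 234 fell in CCNB1-negative cells, with a median log2 fold change of 0.97, and 1111 rose and 121 fell in CCNB1-positive cells, with a median of 1.09. Most of these RNAs are far less abundant than the members. Among the 103 with a mean level at or above that of the lowest member (log2 10.02, or 43.4 RPM), 59 rose and 34 fell in CCNB1-negative cells with a median of 0.71, and 55 rose and 28 fell in CCNB1-positive cells with a median of 0.65. At this abundance 33% and 27.2% of the other RNAs fell in the respective fractions, compared with 80% of the members in each, and no test was run between these shares.

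Set within those 103 RNAs in CCNB1-negative cells, only 3 had a more negative change than SNHG15 or SNHG1. They were AC092757.2 (-2.62), AL451164.2 (-2.37) and AC119427.2 (-2.11), named after their values were seen. SNHG12 was passed by 8, SNHG16 by 12, SNHG6 by 14, SNHG8 by 23, GAS5 by 27, SNHG5 by 29, SNHG7 by 38 and ZFAS1 by 40. In CCNB1-positive cells 4 had a more negative change than SNHG15 and 6 than SNHG1, SNHG12 or SNHG16, while ZFAS1 was passed by 36. When the values of each library were centred on the other long non-coding RNAs, all 10 members were lower in both fractions, by 1.10 (ZFAS1) to 3.08 (SNHG15) on the log2 scale in CCNB1-negative cells, that is changes of -1.10 and -3.08, and by changes of -1.11 to -2.52 in CCNB1-positive cells.

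**Figure D3:**
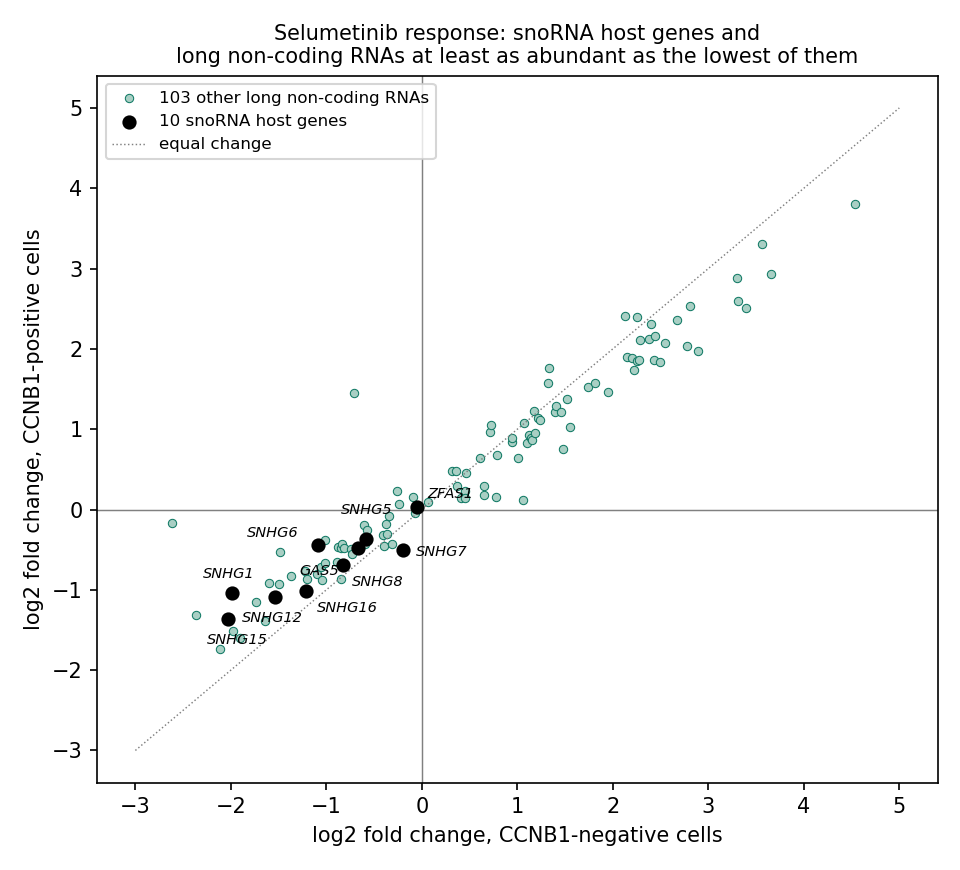
Log2 fold change of selumetinib against untreated in CCNB1-negative (x axis) and CCNB1-positive cells (y axis) for the 10 snoRNA host genes (black, named) and 103 other long non-coding RNAs at least as abundant as the lowest of them (green); the dotted line marks equal change. The host genes lie at or below 0.04 on both axes, while 59 and 55 of the other RNAs rose. The axes do not share libraries. Same-numbered fractions still deviated together, with r of 0.71 (untreated) and 0.56 (treated) over genes of at least 10 RPM.

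Because the values are shares of each library, the reads taken by other genes matter. MALAT1, a nuclear long non-coding RNA, took 0.303% to 0.386% of reads in untreated and 2.01% to 4.42% in treated libraries, and mitochondrial genes took 4.44% to 7.80% and 11.9% to 14.8%. Libraries were also rescaled to nuclear gene reads without MALAT1, a choice made after seeing the data. On this scale 6 of 10 members fell in CCNB1-negative cells, where 3854 of all 14219 genes fell. In CCNB1-positive cells 5 of 10 fell, against 2614 of all genes. SNHG1, SNHG8, SNHG12, SNHG15 and SNHG16 kept the call in both, with SNHG15 at changes of -1.71 and -1.12, whereas GAS5 went to -0.35 (adjusted p = 0.050) and -0.22. The members' median was then -0.64 and -0.35, beside medians of 0.36 and 0.42 for all genes. Part of this shift was already seen with totals of all reads on genes (limma-voom). There the members' median was -0.82 and -0.50, beside 0.19 and 0.27 for all genes. Quantile normalization left 7 and 6 members lower, beside 5375 and 4482 of all genes. It called ZFAS1 higher in both, by 0.43 and 0.51, where 4958 and 3986 of all genes were higher.

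The choice of scale also moved the split over all genes. Among CCNB1-negative cells 51.6% of the called genes were higher, against 63.1% on nuclear reads without MALAT1, 20.05% when centred on long non-coding RNAs and 87.3% when centred on ribosomal protein genes. In CCNB1-positive cells the figure was 58.1%, against 47.1% with quantile normalization and 71.9%, 14.6% and 92.4% with those 3 settings.

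The members differed in how much of the summed level they made up. Together they took 1391 and 1557 RPM in untreated CCNB1-negative, 1533 and 1376 in untreated CCNB1-positive, 960 and 904 in treated CCNB1-negative and 1009 and 1169 in treated CCNB1-positive libraries. Treated libraries all lay below untreated ones. SNHG1 made up 18.9% ± 0.565 (SD, n = 2) of the sum in untreated and 8.32% ± 0.770 in treated CCNB1-negative cells, and 17.7% ± 1.01 and 12.4% ± 0.945 in CCNB1-positive cells. ZFAS1 went the other way, from 20.7% ± 0.841 to 34.8% ± 1.00 and from 21.5% ± 0.276 to 31.7% ± 1.99 (SD, n = 2). The share of GAS5 stayed between 20.8% and 23.5% in all libraries.

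**Figure D4:**
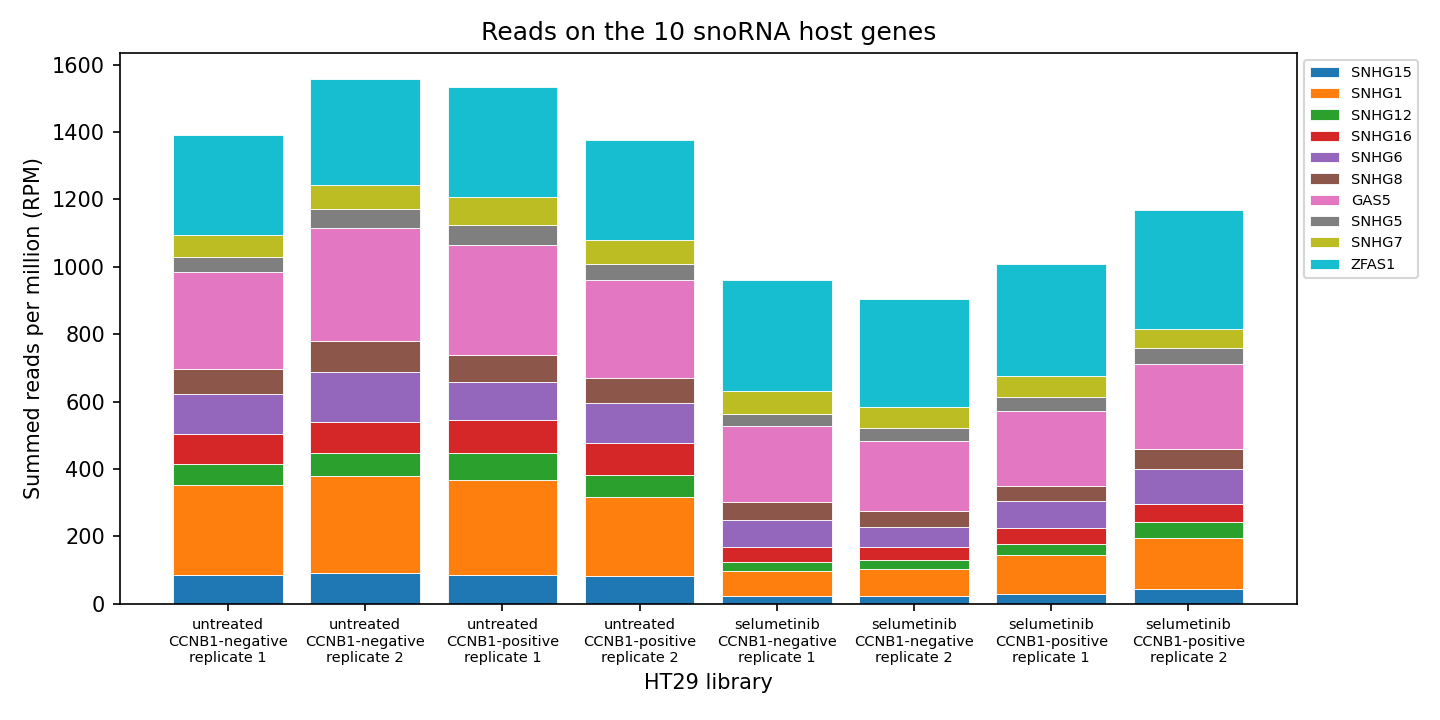
Summed RPM (y axis) of the 10 snoRNA host genes in each of the 8 HT29 libraries (x axis), with 1 coloured segment a gene. The sum lies between 1376 and 1557 in untreated and between 904 and 1169 in treated libraries, and the segment of ZFAS1 keeps its height while that of SNHG1 shrinks.

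Per length of the canonical transcript the order of levels was led by GAS5. In untreated CCNB1-negative cells GAS5 had 408 ± 45.0 RPM per kilobase (SD, n = 2), SNHG1 240 ± 11.9, SNHG16 178 ± 3.99, SNHG6 73.9 ± 11.3, ZFAS1 67.5 ± 2.62, SNHG5 37.7 ± 5.84, SNHG12 35.2 ± 3.13, SNHG15 29.2 ± 1.20, SNHG7 29.0 ± 1.81 and SNHG8 13.4 ± 2.07. The neighbours SNHG6 and ZFAS1, SNHG5 and SNHG12, and SNHG15 and SNHG7 overlapped. In treated CCNB1-negative cells SNHG1 stood at 66.6 ± 3.37, now below SNHG16 at 84.9 ± 7.29 and ZFAS1 at 71.5 ± 0.938, and SNHG15 at 7.86 ± 0.010 was next to SNHG8 at 8.31 ± 0.799, with which it overlapped. This order depends on the transcript taken as canonical, whose length ranged from 498 bases for SNHG16 to 6166 bases for SNHG8.

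The fractions were compared within each treatment. These comparisons use the same libraries as the treatment comparisons. In untreated cells 0 of 10 members differed between the fractions by limma, where 2.87% of all genes did. At an unadjusted p under 0.05, which 13.5% of all genes passed, the count was 0 by limma and 0 by limma-voom on the recovered reads. The changes ran from -0.21 for SNHG6 to 0.17 for SNHG12 with a median of 0.01, and for SNHG1 the 95% confidence interval was -0.46 to 0.23.

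In selumetinib-treated cells 3 of 10 were higher in the CCNB1-positive fraction, against 13.8% of all genes. SNHG1 was higher by 0.83 (SE 0.160, adjusted p = 0.0026), SNHG12 by 0.62 (SE 0.181, adjusted p = 0.027) and SNHG15 by 0.62 (SE 0.183, adjusted p = 0.028) on the log2 scale. For SNHG12 and SNHG15 the higher level rested largely on treated CCNB1-positive replicate 2, without which the differences were 0.35 and 0.31 and 1 member remained called. Both calls were also lost when either treated CCNB1-negative library was left out, at nearly the same size, and on nuclear reads without MALAT1, where SNHG1 was the 1 member called. Of the other members, SNHG6 was at 0.44 (limma adjusted p = 0.10) and SNHG5 at 0.33 (0.16). SNHG16 was at 0.32 (0.12) and GAS5 at 0.18 (0.42). ZFAS1 was at 0.13 (0.56), SNHG8 at 0.02 (0.95) and SNHG7 at -0.15 (0.51). Among all called genes 63.6% were higher in the CCNB1-positive fraction, but 46.5% with quantile normalization.

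The difference between the selumetinib responses of the fractions was tested as an interaction. It passed the test for 1 of 10 members, SNHG1, whose response was 0.95 less negative on the log2 scale in CCNB1-positive cells (SE 0.227, adjusted p = 0.025), where 4.99% of all genes passed in that direction and the median over all genes was 0.11. Leaving out untreated CCNB1-negative replicate 2, untreated CCNB1-positive replicate 2 or treated CCNB1-positive replicate 2 ended this call, with differences of 0.89, 0.82 and 0.77. SNHG15 was at 0.66 (adjusted p = 0.17) and SNHG6 at 0.65 (0.18). SNHG7, at -0.31 (95% confidence interval -0.77 to 0.14, adjusted p = 0.43), was the 1 member with a negative difference.

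Other genes of the snoRNA pathway were counted by list. Of 22 further non-coding snoRNA host genes listed, 18 were tested, and 11 fell and 3 rose in CCNB1-negative cells (median -0.64), while 7 fell and 3 rose in CCNB1-positive cells (median -0.12). SNHG4 fell most, from log2 values of 11.45, 11.45, 11.38 and 10.89 in the untreated libraries to 9.45, 9.64, 9.40 and 9.74 in the treated ones, with changes of -1.90 (adjusted p = 4.7e-07) in the CCNB1-negative and -1.57 (6.7e-06) in the CCNB1-positive fraction. SNHG30 (-1.30 and -0.77), SNHG3 (-1.23 and -0.88), SNHG17 (-1.20 and -0.78), DANCR (-1.14 and -0.80), SNHG29 (-0.96 and -0.63) and EPB41L4A-AS1 (-0.49 and -0.44) also fell in both. SNHG21 fell in CCNB1-negative cells (-1.20) and was at -0.10 in CCNB1-positive cells, where it did not pass.

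Not all snoRNA host genes fell. SNHG31 had log2 values between 3.72 and 5.03 in untreated and between 5.98 and 7.24 in treated libraries. SNHG22 had values between 5.66 and 6.56 in untreated and between 7.68 and 8.25 in treated libraries, and SNHG11 rose by 0.85 and 0.70 in the respective fractions. The changes of SNHG31 were 2.07 and 1.82 and those of SNHG22 were 1.92 and 1.87. Both were far less abundant than the 10 members.

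Protein-coding genes that carry snoRNAs in their introns, ribosomal protein genes aside, fell in 25 of 26 cases in CCNB1-negative cells (median -1.52) and in 23 of 26 in CCNB1-positive cells (median -1.19). HSPA8, a constitutive chaperone gene, had the most negative change (-3.62 and -2.29), and CCAR1 the least (0.34 and 0.21, neither passing). The core proteins of snoRNA particles fell as a whole: all 8 passed in both fractions, with medians of -1.92 and -1.41. DKC1, the pseudouridine synthase of box H/ACA particles and itself a snoRNA host, changed most at -2.41 (adjusted p = 3.5e-08) and -1.79 (1.4e-06), and NOP58, a core protein of box C/D particles, least at -1.50 and -0.96. Among 11 assembly and transport factors 8 and 10 fell. NOLC1, a nucleolar partner of both kinds of particle, was at -2.82 and -2.29, and COIL, the coilin gene, at 0.14 and -0.09 did not pass.

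Nonsense-mediated decay factors, which degrade the spliced host transcripts, were divided. In each fraction 4 of 10 rose and 5 of 10 fell, from SMG8 at -1.88 and -1.16 to SMG6, an endonuclease of the pathway, at 1.54 and 1.10, each past the test in both fractions. The median change was -0.44 and -0.33.

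Cytosolic ribosomal protein genes, of which 78 were tested, fell in 74 cases in CCNB1-negative cells (median -0.98) and in 56 cases in CCNB1-positive cells (median -0.59). RPL17 was lowest at -1.58 and -1.21, and RPL28 at -0.03 and 0.17 did not pass. The medians of the 10 host genes were -0.96 and -0.60. Centred on these ribosomal protein genes, 2 members were lower and 2 higher in CCNB1-negative cells, and 1 lower and 1 higher in CCNB1-positive cells. On this scale 8748 of all 14219 genes were higher and 1270 lower in CCNB1-negative cells. In CCNB1-positive cells 7951 were higher and 653 lower, and the medians of all genes were 1.08 and 0.86 in the respective fractions. Relative to the ribosomal protein genes ZFAS1 rose (0.97 and 0.73), as most genes did. SNHG15 was at -1.003 and -0.68, and GAS5 was at 0.36 and 0.21 without passing the test.

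**Figure D5:**
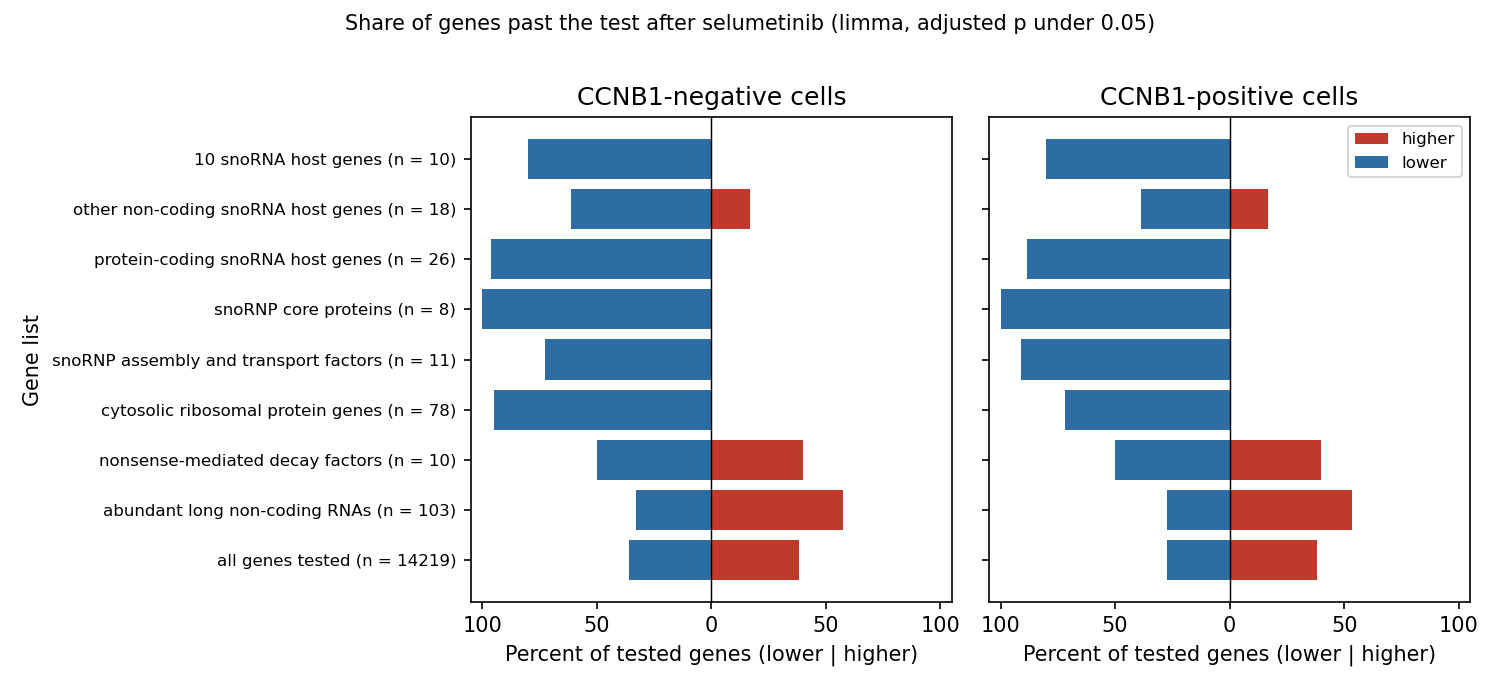
Percent of tested genes that were lower (blue, left) or higher (red, right) after selumetinib in CCNB1-negative and CCNB1-positive cells, for gene lists of the snoRNA and ribosome pathway (y axis, with the number of genes tested). Host genes, snoRNA particle proteins and ribosomal protein genes are on the lower side, while 57.3% and 53.4% of the abundant long non-coding RNAs are on the higher side.

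Across the 8 libraries 8 of the members were closely correlated with the mean of the members, a measure that leaves out the size of a change. In CCNB1-negative cells the changes of these 8 members ran from -0.59 for SNHG5 to -2.03 for SNHG15. Their correlation with the mean of the 10 centred profiles was 0.93 for SNHG5, 0.95 for SNHG6 and SNHG8 and 0.99 for GAS5, SNHG1, SNHG12, SNHG15 and SNHG16, compared with 0.75 for SNHG7 and 0.38 for ZFAS1. Each member is part of that mean, and the 8 points share treatment and library. The share of all genes with such a correlation was not counted. Outside the members the closest genes by the same measure were HCAR1, a lactate receptor gene (0.997), and RPS19BP1, RCC1, SLC9A3 and FAM207A (0.991 to 0.992). RCC1 is transcribed from the locus of SNHG3.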

How the data were processed

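RNA of 8 HT29 samples was made into directional poly(A) mRNA-seq libraries. Per the methods and the submitters' notes, adapters were removed with Trim Galore (0.5.0) and HISAT2 (2.1.0) aligned the reads to GRCh38. The authors then counted genes in SeqMonk and deposited them as log2 reads, each library brought to the total of the largest one. A gene with no read carries the value of 0.9 reads on that scale. Strand handling, exon merging and the annotation release are not given in the sources used here. The labels name another growth medium (RPMI-1640) than the methods (McCoy's 5A). Gene types, exons and overlaps come from GENCODE release 44, in which 99.3% of the gene identifiers were found. The 16649 other long non-coding RNAs of the table are rows of that type without the members and the further host genes.

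Whole reads were recovered for 100% of values under 1000 reads (tolerance 0.02 reads). Without molecular identifiers, such reads limit the counting error alone. Replicates differed by more than sampling noise (chi-square per gene 19.8 to 35.8).

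A mean of 1 RPM or more (log2 4.58) was required, and the genes that met it were tested with limma 3.58.1 in R 4.3.3, with a mean-variance trend, on all 8 libraries and 4 groups in one model, with Benjamini-Hochberg adjustment over 14219 genes and a threshold of 0.05. Since the deposited unit is log2, no count model was the main test. The procedure was tested on simulated data. Alternatives were other filters, scalings, pseudocounts of 0.1 and 1 RPM, limma-voom on recovered reads, a block on the replicate number, and each library left out. All 10 members were named in every comparison. Further non-coding host genes were named where they passed in both treatment comparisons or changed over 2-fold in either, other lists by the highest and lowest change in CCNB1-negative cells, and the 5 closest profiles by Pearson correlation. The members and lists were chosen with earlier results of these data known, so no p-value is given for a list. Some genes that overlap members are not reported here.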

Additional observations from a re-analysis of the deposited data

Results flagged for a closer look

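SNHG1 was flagged because its selumetinib response differed between the fractions by a test of the difference itself: the interaction was 0.95 on the log2 scale (SE 0.227, limma adjusted p = 0.025), with changes of -1.99 among CCNB1-negative and -1.04 among CCNB1-positive cells. Within replicate number 1 the treated CCNB1-positive library was 0.69 above the treated CCNB1-negative one and within number 2 it was 0.97 above, whereas the untreated libraries differed by 0.07 and -0.30.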

How the results depend on the processing

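The 8 members lower in CCNB1-negative cells ranged from 7 to 8 over the libraries left out, and the 8 lower in CCNB1-positive cells from 5 to 8, with the 5 reached without untreated CCNB1-positive replicate 1 or treated CCNB1-positive replicate 1. Of the single-gene values, 991 stayed on the same side of the test, 53 lost and 16 gained the call with the same sign, and 10 that passed with or without the alternative changed sign. Of the 991, 46 also changed sign, passing in neither fit. Centred on ribosomal protein genes, 2 members were lower and 2 higher in CCNB1-negative cells and 1 lower and 1 higher in CCNB1-positive cells. Of all 14219 genes, 8748 were higher and 1270 lower in CCNB1-negative cells, and 7951 higher and 653 lower in CCNB1-positive cells. Signs turned for GAS5 (0.36 and 0.21), SNHG5 (0.44 and 0.33) and SNHG7 (0.83 and 0.18) in both fractions. They also turned for SNHG8 (0.20) and ZFAS1 (0.97) in CCNB1-negative and SNHG6 (0.25) in CCNB1-positive cells. Quantile normalization gave 1 member higher in each fraction, ZFAS1 at 0.43 in CCNB1-negative cells, where 4958 and 3986 of all genes were higher. Centring on long non-coding RNAs put ZFAS1 at -1.11 in CCNB1-positive cells, beside a median of -0.98 for all genes. On nuclear reads without MALAT1, chosen after seeing the data, 5 members were lower in CCNB1-positive cells, beside 2614 of all genes.

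The 3 members higher in treated CCNB1-positive cells became 1 without the filter, on nuclear reads without MALAT1 and at a threshold of 0.01, became 0 centred on ribosomal protein genes, and ranged from 1 to 3 over libraries left out. The interaction of SNHG1, the 1 call, became 0 calls without the filter, with median-of-ratios size factors, centred on long non-coding RNAs or on ribosomal protein genes and at 0.01, and ranged from 0 to 2 over libraries left out. The cause was not tested.

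A replicate block left the counts at 8, 8, 0, 3 and 1. Blocking each pair of fractions within a treatment by its replicate number called 6 members in treated cells and 3 in the interaction. The shares of all genes called with this block were not counted. The 13.8% and 4.99% given above belong to the fit without it. Same-numbered fractions deviated together within untreated (r = 0.35, or 0.71 over genes of at least 10 RPM) and treated cells (r = 0.43, or 0.56) but not across treatments (r from -0.09 to 0.08, or -0.14 to 0.04), and the labels do not say that a number marks a shared culture.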
